A study of Sus scrofa with 2 samples.

Results

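Microtubules are hollow polymers built from dimers of alpha and beta tubulin, and mammals encode each subunit in several near-identical genes, the isotypes. Beta tubulin isotypes differ mainly in the acidic tail at the carboxyl end, where modifying enzymes and microtubule-associated proteins act. TUBB3 is best known as a marker of neurons, TUBB and TUBB4B as widely expressed isotypes, TUBB2A, TUBB2B and TUBB4A as isotypes enriched in the nervous system, and TUBB6 as an isotype found outside it. The alpha tubulin genes TUBA1A, TUBA1B and TUBA1C encode nearly the same protein. These roles are known mostly from human and mouse.

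The genes described are the 10 alpha and beta tubulins TUBB, TUBB2A, TUBB2B, TUBB3, TUBB4A, TUBB4B, TUBB6, TUBA1A, TUBA1B and TUBA1C, chosen by name, out of 25880 gene identifiers in the table. Of these 10, 7 had an identifier in the table that could be paired with the symbol, 6 of the 7 beta tubulins and 1 of the 3 alpha tubulins. TUBB2A, TUBA1A and TUBA1C were not analysed here. They were measured by RNA-seq in PSI, a smooth muscle cell clone from the ileum of the pig, kept in DMEM with antibiotics and 10% FBS, the culture serum. The series holds 1 group of 2 libraries of this 1 clone, with no treatment, tissue or other cells to compare. The sources used here do not give the age or strain of the animal, or whether the libraries came from separate cultures. An SD therefore describes only how far these 2 libraries lie apart, and that distance may be technical. In such bulk RNA, fewer cells with a transcript and less transcript per cell cannot be told apart.

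Values are FPKM, reads scaled by the length of the gene model and by the library total, and every level given is per length. The totals that the authors divided by, worked out from the steps between low values, were 35176565 (replicate 1) and 32217729 (replicate 2). Of 10 smooth muscle markers, 9 reached 1 FPKM in both libraries, where 61.5% of the 14857 identifiers with a symbol did. They ranged from ACTA2 at 693 ± 11.8 FPKM (SD, n = 2) to TAGLN at 5.46 ± 0.175 and DES at 2.90 ± 0.231. MYH11, encoding smooth muscle myosin, was at 0.491 ± 0.0433, although its identifier was not checked by position. Low values need care: RPL29, a ribosomal protein gene used by every cell, was listed at 0 in both libraries, and TPI1, a glycolytic enzyme gene, was at 0.424 and 0.224 FPKM.

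By the listed values, the clone carried abundant alpha tubulin TUBA1B, 3 beta tubulins at high levels, TUBB3 below them, and little TUBB or TUBB4A. Of the 7 measured tubulins, 6 reached 1 FPKM in both libraries, against the same 61.5% of identifiers with a symbol and 40.9% of all identifiers. At 10 FPKM or more in both libraries there were 5, where 32.8% of identifiers with a symbol and 21.3% of all identifiers were. With 1 group there is no test of these levels against a condition.

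**Figure D1:**
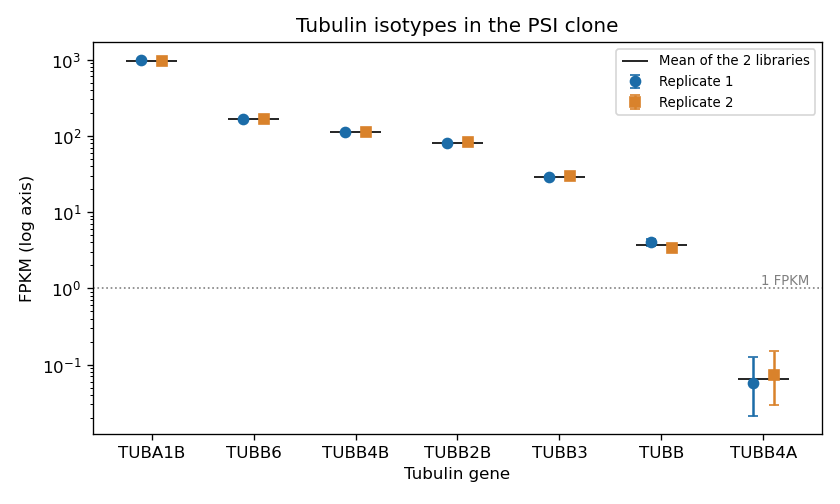
FPKM (log axis) of the 7 measured tubulin genes in each PSI library, ordered by mean. Points are the libraries, bars 95% exact Poisson intervals of the recovered reads (counting error alone), and lines the mean. TUBA1B lies near 969, TUBB3 near 29.2 and TUBB4A under 0.1 FPKM.

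TUBA1B, the widely expressed alpha tubulin, stood at 975 FPKM in replicate 1 (91551 recovered reads) and 964 in replicate 2 (82943 reads). Its mean was 969 ± 7.46 (SD, n = 2), which made it number 23 of all genes with a symbol, the most abundant of the measured tubulins. The RefSeq annotation of Sscrofa11.1 places TUBA1B on chromosome 5 from 15150229 to 15153620, overlapping the gene model LOC100127131, and its close relatives TUBA1A and TUBA1C could not be paired with an identifier of the table, so how reads of these near-identical genes were divided is uncertain. Another 3 alpha or beta tubulin genes had an identifier and were far lower. TUBB1, the beta tubulin of platelets, had 0.752 and 0.682 FPKM. TUBAL3, an alpha tubulin-like gene, had 0.199 and 0.172. TUBA4A, an alpha tubulin of platelets and other tissues, had 0.00871 FPKM in replicate 1 from 1 read and was listed at 0 in replicate 2. None of these 3 reached 1 FPKM.

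Among the beta tubulins, TUBB6 was highest, at 165 FPKM in replicate 1 (31073 reads) and 166 in replicate 2 (28638 reads). TUBB4B followed with 112 and 112 FPKM, from 19330 and 17739 reads, and TUBB2B, a beta tubulin of developing neurons, with 80.1 and 83.3 FPKM from 12295 and 11708 reads. Their means were 165 ± 0.731, 112 ± 0.156 and 81.7 ± 2.25 (SD, n = 2), and they stood at numbers 228, 382 and 565 among genes with a symbol. The values of neighbouring genes in this order did not overlap between libraries: TUBB6 lay 1.48-fold above TUBB4B, and TUBB4B 1.37-fold above TUBB2B.

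The order of the top pair depends on the gene models. The gene length recovered from the values was 4910 bp for TUBB4B and 4363 bp for TUBB2B. Both exceeded the whole RefSeq gene (2630 and 3076 bp), while that of TUBB6 (5362 bp) fitted inside its RefSeq gene of 7054 bp. Such a span runs from start to end with introns included, so fitting inside it does not show the length of TUBB6 to be right. With lengths held to the RefSeq span, an alternative added after seeing the data, TUBB4B had 209 FPKM and lay 1.27-fold above TUBB6 at 165. TUBB2B had 116. This alternative can only shorten a gene, and it left TUBB6 as recovered. TUBB2A, a close paralog of TUBB2B, was not analysed here. RefSeq places TUBB6 on chromosome 6 from 97233639 to 97240692, where it overlaps AFG3L2, and TUBB2B on chromosome 7 from 1952705 to 1955780, where it overlaps LOC110261696. The levels of TUBB2B, TUBB4B and TUBB6 are therefore uncertain, and TUBB4B lies on a sequence that RefSeq does not assign to a chromosome.

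TUBB3, the neuronal beta tubulin, had 28.9 FPKM in replicate 1 (2479 reads) and 29.4 in replicate 2 (2311 reads), over a recovered length of 2438 bp. Its mean was 29.2 ± 0.365 (SD, n = 2), number 1976 of all genes with a symbol. It came after TUBB6, TUBB4B and TUBB2B and before TUBB and TUBB4A, and its values overlapped with those of neither neighbour in either library. TUBB, the constitutive isotype of most cells, had 4.01 and 3.42 FPKM from 420 and 328 reads, and stood at number 7517. TUBB4A, a brain isotype, had 0.0573 and 0.0730 FPKM from 6 and 7 reads, at number 11137. RefSeq places TUBB on chromosome 7 from 23247827 to 23252240 and TUBB4A on chromosome 2 from 72599244 to 72605362, with no other annotated gene overlapping either. For TUBB3 no position was analysed here.

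**Figure D2:**
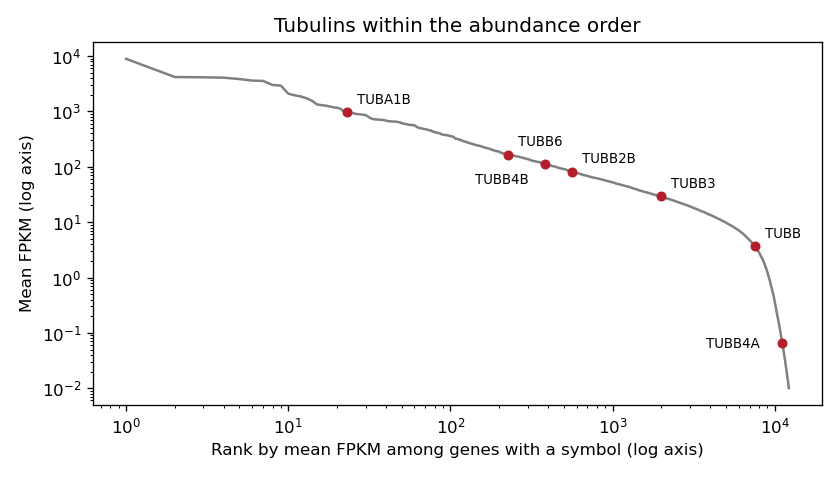
Mean FPKM of genes with a symbol (grey line, both axes log) against their rank, with the 7 measured tubulins as points. TUBA1B stands at rank 23, TUBB6 at 228, TUBB3 at 1976 and TUBB4A at 11137.

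Set against each other beta tubulin, TUBB3 was lower than TUBB6, TUBB4B and TUBB2B and higher than TUBB and TUBB4A, in both libraries. TUBB6 exceeded TUBB3 5.70-fold in replicate 1, with a 95% interval from 5.47 to 5.94, and 5.63-fold in replicate 2, from 5.40 to 5.88. These are exact binomial intervals of the recovered reads within 1 library, so they cover counting error alone. The reads carry no molecular identifiers and need not be independent molecules, so the intervals can be too narrow even for that. TUBB4B exceeded TUBB3 3.87-fold and 3.81-fold, and TUBB2B 2.77-fold and 2.83-fold. With their lengths held to the RefSeq span and that of TUBB3 left as recovered, TUBB4B was 7.17-fold and TUBB2B 3.97-fold above TUBB3. In the opposite direction, TUBB3 exceeded TUBB 7.22-fold in replicate 1 (6.51 to 8.02) and 8.61-fold in replicate 2 (7.67 to 9.70). The intervals do not cover reads that align to several places, which HTSeq drops under its usual settings. Near-identical tubulin genes, TUBB among them, can thus be listed too low, and how far this affected these ratios was not tested. The ratio of TUBB3 to TUBB4A was 505 (231 to 1376) in replicate 1 and 403 (195 to 1004) in replicate 2, resting on 6 and 7 reads of TUBB4A.

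On the log2(FPKM + 1) scale the difference of TUBB3 was -2.46 ± 0.01 from TUBB6, -1.91 ± 0.02 from TUBB4B, -1.45 ± 0.02 from TUBB2B, 2.68 ± 0.15 from TUBB and 4.82 ± 0.00242 from TUBB4A (SD, n = 2). Each of these differences exceeded the spread between the libraries. No test was run, because 2 libraries with 1 ratio each are too few for an exact permutation test to reach p below 0.05. The pseudocount of 1 compresses both the difference from TUBB4A and its spread between the libraries. Without it the mean difference is 8.82, with 8.98 in replicate 1 and 8.66 in replicate 2, so the small SD does not show a reproducible ratio.

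**Figure D3:**
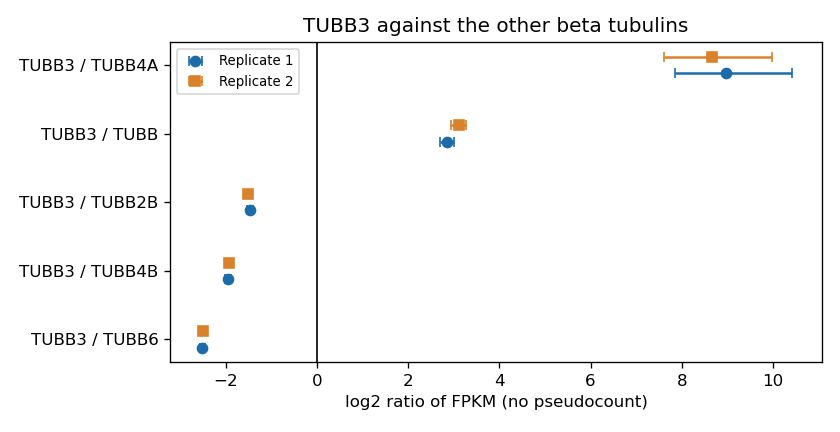
log2 ratio of TUBB3 to each other measured beta tubulin (FPKM, no pseudocount) in each library, with 95% exact binomial intervals of the reads. The ratios to TUBB6, TUBB4B and TUBB2B are below 0 and those to TUBB and TUBB4A above 0 in both libraries.

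The 6 measured beta tubulins summed to 390 FPKM in replicate 1 and 394 in replicate 2. TUBB6 made up 42.3% and 42.1% of this sum, TUBB4B 28.7% and 28.5%, and TUBB2B 20.6% and 21.1%. TUBB3 contributed 7.42% and 7.47%, so the other 5 together were 12.5-fold and 12.4-fold above it. TUBB contributed 1.03% and 0.867%, and TUBB4A 0.0147% and 0.0185%. Counted as reads without the length correction, the share of TUBB3 was 3.78% and 3.81%, since the recovered models of the top 3 are longer than that of TUBB3. With lengths held to the RefSeq span, which shortened TUBB2B and TUBB4B while TUBB3 had no RefSeq span to be held to, its share of summed FPKM was 5.57%. These shares cover the measured genes alone and leave out TUBB2A.

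**Figure D4:**
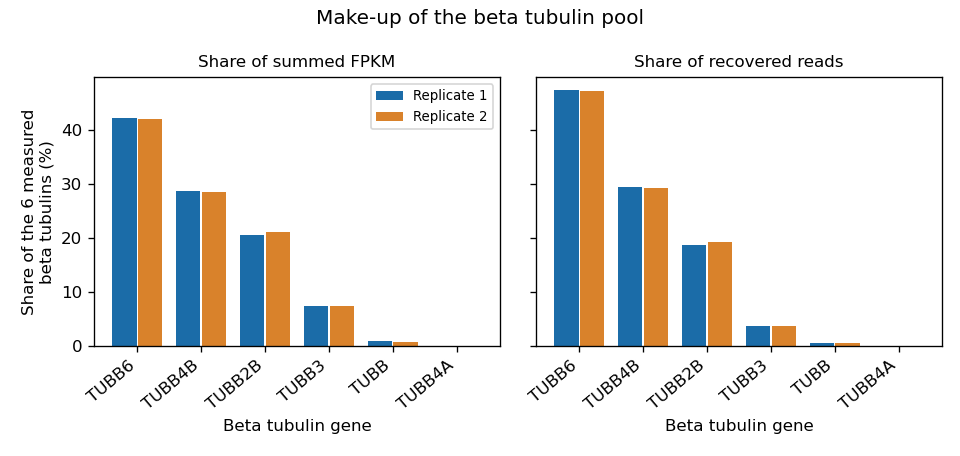
Share (%) of each of the 6 measured beta tubulin genes in their summed FPKM (left) and in their summed recovered reads (right), in replicates 1 and 2. TUBB3 holds 7.42% and 7.47% of the FPKM and 3.78% and 3.81% of the reads.

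The alpha gene TUBA1B alone was at 2.50 times the summed beta tubulins in replicate 1 and 2.45 times in replicate 2. The tubulin dimer needs equal numbers of both subunits, but this ratio compares messenger RNA of 1 alpha gene with 6 beta genes and leaves out TUBA1A, TUBA1C and TUBB2A. By reads it was 1.38, and with lengths held to the RefSeq span 1.85. The 7 tubulins held 0.370% and 0.369% of the summed FPKM of the table.

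The duplicate libraries differed little in the more abundant tubulins. The coefficient of variation was 0.139% for TUBB4B, 0.443% for TUBB6, 0.769% for TUBA1B, 1.25% for TUBB3, 2.75% for TUBB2B, 11.2% for TUBB and 17.0% for TUBB4A, against a median of 2.62% over the 10738 genes whose mean was at least 1 FPKM. A two-sided exact binomial test of the recovered reads, with Benjamini-Hochberg adjustment over 16327 genes, separated the libraries at 182 genes, or 1.11%. It called none of the 7 tubulins, and of the 10 smooth muscle markers it called 2, ACTA2 and ACTG2, both higher in replicate 1. The smallest adjusted p was 0.125, for TUBB2B, which was 1.04-fold higher in replicate 2 (95% interval 1.01 to 1.07). TUBB was 0.853-fold in replicate 2 (0.736 to 0.988), with an adjusted p of 0.391. At an unadjusted p under 0.05 there were TUBB2B (0.00261), TUBA1B (0.0233) and TUBB (0.0308). The test sets these 2 libraries against counting error alone and compares no condition, and a p that misses the threshold does not show equal levels.

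Since TUBB3 serves as a marker of neurons, the other neuron markers are given beside it. Of 24 measured enteric neuron markers, 3 reached 1 FPKM in both libraries, where 61.5% of identifiers with a symbol did. Another 9 were listed at 0 in both: ELAVL3 and ELAVL4, neuronal RNA-binding proteins, PHOX2A, PRPH, CHAT, VIP, TAC1, TH and DBH. Zeros were common in the whole table, where only 16327 of all 25880 identifiers were above 0 in either library. That background includes identifiers without a symbol, while every marker here has one. The median on the log2(FPKM + 1) scale was 0.219 over all identifiers and 2.29 over those with a symbol. The share of zeros among identifiers with a symbol was not computed. SNAP25, a synaptic vesicle fusion protein, was listed at 0 in replicate 1 and had 0.0172 FPKM in replicate 2 from 1 read. STMN2, a neuronal tubulin-binding protein, was listed at 0 in replicate 1 and had 0.0276 in replicate 2 from 2 reads. The 3 markers above 1 FPKM were UCHL1, a ubiquitin hydrolase, at 238 ± 1.92 FPKM (SD, n = 2), HAND2, a transcription factor of gut mesenchyme and autonomic neurons, at 62.1 ± 0.477, and RBFOX3, a neuronal splicing factor, at 2.36 ± 0.0531.

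The whole neuron list summed to 306 and 302 FPKM, nearly all from UCHL1 and HAND2. These 2 lay above TUBB3, 8.15-fold and 2.13-fold by mean FPKM. Without them, the other 22 markers summed to 4.002 and 3.73 FPKM, of which RBFOX3 had the most (mean 2.36). TUBB3 was 7.22-fold and 7.88-fold above that sum, but leaving out the 2 markers higher than TUBB3 favours this comparison. Of the enteric glia markers, SOX10 was at 0.139 ± 0.00229 FPKM, GFAP at 0.124 ± 0.00165 and ERBB3 at 0.0948 ± 0.0407 (SD, n = 2).

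The other genes of the tubulin system are given by their step in making and using microtubules, and each count is to be read against the 61.5% of genes with a symbol that reached 1 FPKM in both libraries. All 17 measured genes of tubulin folding reached 1 FPKM in both libraries, with a median of 5.42 on the log2(FPKM + 1) scale, where all genes with a symbol had a median of 2.29. The highest were subunits of the chaperonin that folds tubulin and actin: CCT8 at 205 ± 4.50 FPKM, CCT3 at 198 ± 4.19, CCT5 at 101 ± 0.203 and CCT2 at 77.3 ± 0.258 (SD, n = 2). The gene lengths behind this order were not checked against RefSeq. CCT7, at 52.9 FPKM, had 12819 and 11777 reads over a recovered length of 6896 bp, and CCT8 had 12079 and 10725 over 1650 bp. Of the genes by which free tubulin controls the decay of tubulin messenger RNA, all 3 reached 1 FPKM. CNOT11, a deadenylase subunit, was at 12.2 ± 0.328, TTC5, which recognises nascent tubulin, at 4.43 ± 0.160, and SCAPER, which joins TTC5 to CNOT11, at 1.98 ± 0.0301.

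Microtubule nucleation genes had a list median of 3.02 on the same scale. All 10 measured gamma, delta and epsilon tubulins and ring complex genes reached 1 FPKM. Of them, 4 reached 10 FPKM in both libraries, near the 32.8% of identifiers with a symbol that did. NEDD1, which recruits the ring complex, had 48.2 ± 1.11 FPKM, TUBGCP2 33.2 ± 0.594, TUBGCP3 19.0 ± 0.167 and MZT1 10.9 ± 0.238, the last 3 being parts of that complex. Recovered lengths, not checked against RefSeq, were 1137 bp for NEDD1, 930 bp for TUBGCP2 and 4713 bp for TUBGCP3. By reads, TUBGCP3 (3125 and 2898) lay above NEDD1 (1895 and 1793) and TUBGCP2 (1072 and 1007). TUBG1, the gamma tubulin itself, had 4.04 and 4.71 FPKM, and TUBD1 and TUBE1, the delta and epsilon tubulins of centrioles, 1.73 and 1.75, and 2.67 and 2.20.

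Genes that modify tubulin ranged from 0 to 110.1 FPKM. Of 23 measured, 16 reached 1 FPKM and 4 were listed at 0 in both libraries (AGBL1, TTLL6, TTLL8 and TTLL11). Of all 25880 identifiers, 16327 were above 0 in either library, but these include identifiers without a symbol. The share of zeros among those with a symbol was not computed. The share at 1 FPKM was near the 61.5% of all genes with a symbol, and the median of 2.45 near their 2.29. TTLL12, a member of the tubulin tyrosine ligase-like family, was highest at 110.1 ± 0.896 FPKM, followed by TTLL3, a glycylase, at 81.0 ± 0.277, the deacetylase SIRT2 at 36.5 ± 1.38 and the glutamylase TTLL5 at 19.7 ± 0.396. This order also rests on recovered lengths not checked against RefSeq: 629 bp for TTLL3 (1796 and 1637 reads) and 3933 bp for TTLL5 (2758 and 2455 reads). ATAT1, which acetylates alpha tubulin, had 4.56 and 3.78 FPKM, and HDAC6, which removes the mark, 2.58 and 3.17. The tubulin carboxypeptidases VASH1 and VASH2 had 7.21 and 7.53, and 16.3 and 15.6 FPKM.

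Of 12 measured structural microtubule-associated proteins, 9 reached 1 FPKM, with a median of 2.59, also near that of all genes with a symbol. MAP7D1, a microtubule-binding protein that recruits kinesin, had 118 ± 1.52 FPKM, MAP1B, abundant in growing axons, 91.1 ± 0.826, MAP4, the main such protein outside neurons, 47.5 ± 0.393, and MAP1A 17.2 ± 0.217 (SD, n = 2). DCLK1, a doublecortin-like kinase, had 11.4 ± 0.124. Of other members with known roles in neurons, MAPT, the tau gene, had 1.39 and 1.23 FPKM, MAP2 1.42 and 1.18, and DCX, of migrating neurons, 0.188 and 0.129. Of 21 measured genes of microtubule ends, severing and the stathmin family, 18 reached 1 FPKM, with a median of 4.22. STMN1, the widely expressed stathmin that sequesters tubulin, had 71.1 ± 0.304, MAPRE1, the end-binding protein, 64.6 ± 0.213, DCTN1, a dynactin subunit, 52.9 ± 0.258, and CAMSAP2, which caps minus ends, 40.8 ± 1.44. The nervous system stathmins STMN3 (0.860 and 0.769) and STMN4 (listed at 0 in replicate 1 and 0.0224 in replicate 2) were lower.

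**Figure D5:**
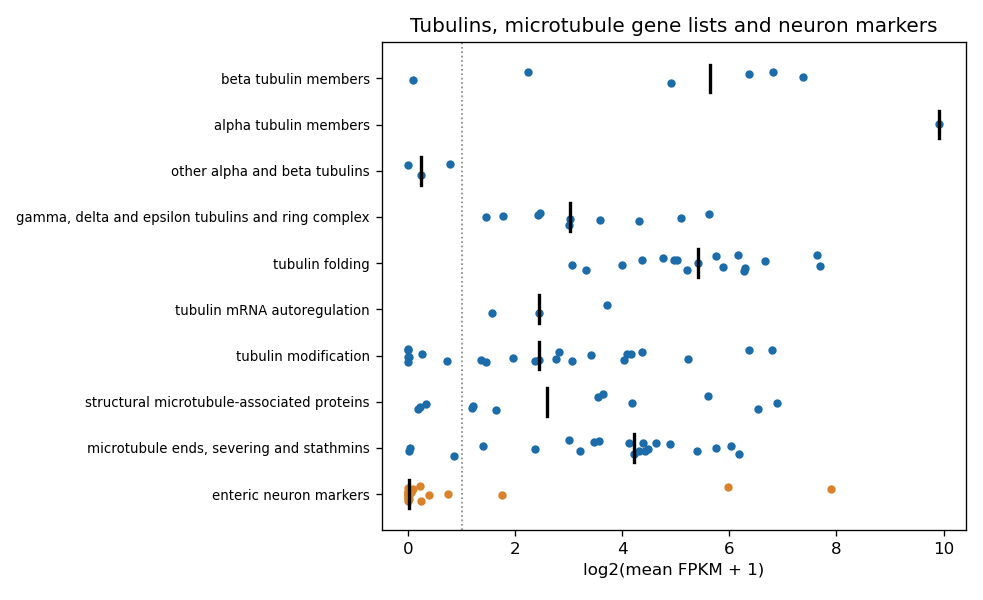
Each point is a gene, as log2(mean FPKM + 1) over the 2 PSI libraries, by list, and the bars are list medians. The dotted line marks 1 FPKM. The folding list has its median at 5.42, and 21 of 24 neuron markers (orange) lie left of the dotted line. Of identifiers with a symbol, 61.5% reached 1 FPKM in both libraries.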

How the data were processed

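RNA-seq of 2 PSI libraries was analysed. Per the labels' protocols, TRIzol was used for RNA and the NEBNext Ultra kit for the libraries. Per the submitters' processing notes, TopHat2 2.0.12, HTSeq 0.6.1 and the build Sscrofa11.1 were used. The sources used here do not name the annotation release, strand setting or filters. FPKM values were deposited by the authors in 1 column per library. Reads that align to several places are dropped under HTSeq's usual settings, so near-identical tubulin genes can be listed too low.

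Library totals were recovered from the steps of the low values. Each gene then received the shortest length from 50 to 30000 bp giving whole reads in both libraries, with a tolerance of 1.2 times the rounding of the printed values. All (100%) of the 16327 genes above 0 came out whole, and for 11 of 12 mitochondrial genes the length was that of RefSeq. The reads so found are the smallest possible, in sum 90.8% of either total, and true reads may be a multiple. The recovery and the binomial test were tested on data simulated from the recovered lengths and reads with counting error alone. Such a simulation cannot show whether the true reads are a multiple, or how real libraries vary beyond counting. Symbols were matched for 14857 of 25880 identifiers, and positions come from RefSeq by symbol. Log values are log2(FPKM + 1), with Python 3.11.15, numpy 2.4.6, pandas 2.3.3, scipy 1.17.1 and matplotlib 3.10.9.

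All members were named, as were the 4 highest genes of each list, every other alpha or beta tubulin, and neuron markers from 1 FPKM; TUBG1, TUBD1, TUBE1, ATAT1, HDAC6, VASH1, VASH2, MAPT, MAP2, DCX, DCLK1, STMN3, STMN4, the smooth muscle and glia markers, RPL29 and TPI1 were added after their values were seen. The members and lists were chosen with earlier results of these data known. Alternatives changed the pseudocount, scaling, length, detection level, summed value and genes, and left out each library. Of the glia list, 1 marker is not reported here.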

Additional observations from a re-analysis of the deposited data

How the results depend on the processing

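Of the alternatives run, 1 reversed a result: with lengths held to the RefSeq span, the log2 difference of TUBB6 from TUBB4B went from 0.56 to -0.34, because the recovered length of TUBB4B exceeds its RefSeq gene. None of the 7 tubulins was called different between the libraries by the exact binomial test, under median-of-ratios scaling, or without genes of a mean under 1 FPKM. No paired analysis was possible because the series holds 1 group, so no groups share replicate numbers; the ratios of TUBB3 were taken within each library. Leaving out each library gave 3.42 to 4.01 FPKM for TUBB, 80.1 to 83.3 for TUBB2B, 28.9 to 29.4 for TUBB3, 0.0573 to 0.0730 for TUBB4A, 112 to 112 for TUBB4B, 165 to 166 for TUBB6 and 964 to 975 for TUBA1B. As TPM, which divides by the column sum, the levels of TUBB, TUBB2B, TUBB3, TUBB4A, TUBB4B, TUBB6 and TUBA1B were 10.1, 222, 79.2, 0.177, 304, 449 and 2633. With lengths held to the RefSeq span, an alternative chosen after seeing the data, TUBB2B had 116 and TUBB4B 209 FPKM, the share of TUBB3 was 5.57%, the log2 difference of TUBB3 from TUBB2B was -1.95 and from TUBB4B -2.80, and the alpha to beta ratio was 1.85. By recovered reads the share of TUBB3 was 3.79%, the ratio 1.38, and the log2 differences of TUBB3 from TUBB2B, TUBB4B, TUBB6 and TUBB4A were -2.33, -2.95, -3.64 and 8.53. With a pseudocount of 0.1 and with none, they were -1.48 and -1.49 from TUBB2B, -1.94 and -1.94 from TUBB4B, -2.50 and -2.50 from TUBB6, 2.95 and 2.98 from TUBB, and 7.47 and 8.82 from TUBB4A. The libraries differed at 184 genes under median-of-ratios scaling and at 235 when genes with a mean under 1 FPKM were left out, against 182. Depth limits TUBB4A, with 6 and 7 reads.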
